A study of Mus musculus with 2 samples.

Results

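Surfactant proteins, the proteases that process them and the components of the lamellar body were followed in cultured mouse fetal lung epithelium grown with CHIR99021 or without it. The set was given as 10 genes, and its values are those of every probe set annotated to exactly 1 of them. This gave 19 probe sets of 9 genes, out of 45101 probe sets and 18193 genes with a probe set of their own. The tenth gene, Lamp3, a glycoprotein of the lamellar body membrane, shared its only probe set with a second gene and has no value here.

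The cultures were of epithelium isolated from ICR mouse lung at embryonic day 11. It was grown in Matrigel, a basement membrane gel, with FGF10, a growth factor that drives lung budding, and with CHIR99021, which blocks the kinase GSK3 and so keeps beta-catenin from being degraded, turning on canonical Wnt signalling. After 4 days the epithelium was fragmented, embedded again and grown for 2 more days in FGF10 medium that either kept CHIR99021 or lacked it. Both groups had therefore been exposed to the inhibitor, and the group without it is a withdrawal group, not a culture that never saw it. Each condition was measured on 1 array, so no error between cultures can be given, no value below has a replicate and no p-value was computed.

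Pulmonary surfactant is a film of phospholipid and protein that lowers surface tension in the alveolus. Alveolar type 2 cells assemble it and store it in lamellar bodies, lysosome-related organelles that fuse with the apical membrane to release their contents. Its proteins are of different kinds. SP-B and SP-C are small hydrophobic proteins cut from larger precursors inside the cell, and SP-A and SP-D are soluble collectins of innate defence. Sftpc is transcribed in distal lung epithelium early in development, before mature type 2 cells exist.

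The arrays differed as a whole. The median log2 ratio, with CHIR99021 over without it, was -0.42 over the 12891 genes above a background floor on at least 1 array, and 77.3% of these genes had a lower signal with CHIR99021. The floor, the 95th percentile of the signals of olfactory and vomeronasal receptor probe sets, was a signal of 12.9 with CHIR99021 and 19.2 without it. The 3' over 5' signal ratio of beta-actin was 3.18 with CHIR99021 and 1.29 without it, and that of Gapdh was 1.62 and 0.737 in the same order. These ratios rise when transcripts are read less completely, and their part in the results below was not tested. Known Wnt targets followed the labels: Axin2, a feedback inhibitor, had a signal of 267 with CHIR99021 and 58.2 without it, and Lef1, a partner of beta-catenin, had 225 and 29.8 in the same order. Lgr5, a receptor that amplifies Wnt signals, had 416 with CHIR99021 and was below the floor without it, at least 21.6-fold higher.

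Of the 9 member genes, 5 were at least 2-fold lower with CHIR99021, 4 were within 2-fold and 0 were at least 2-fold higher. Over all 12891 genes above the floor, 18.4% were at least 2-fold lower and 1.9% at least 2-fold higher. Each gene was represented by its probe set of highest mean log2 signal. All 9 members were above 1000 on the array without CHIR99021. Among the 2155 genes with a signal of 1000 or more on the brighter array, a limit chosen after the values were seen, 14% were at least 2-fold lower and 1.62% at least 2-fold higher. Napsa (51.1 with CHIR99021), Sftpd (87.8) and Slc34a2 (218) passed this limit only through the array without CHIR99021. The bright genes are therefore not an independent background for them. The median log2 ratio of the members was -1.04, against -0.42 for all genes above the floor and -0.26 for the bright genes. By probe set, 9 of the 18 that were above the floor on at least 1 array were at least 2-fold lower with CHIR99021 and 0 at least 2-fold higher, against 24.1% and 1.51% of all single-gene probe sets. One further probe set, of Lpcat1, was below the floor on both arrays. In bulk RNA, fewer cells that express a gene and less of its RNA per cell cannot be told apart.

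**Figure D1:**
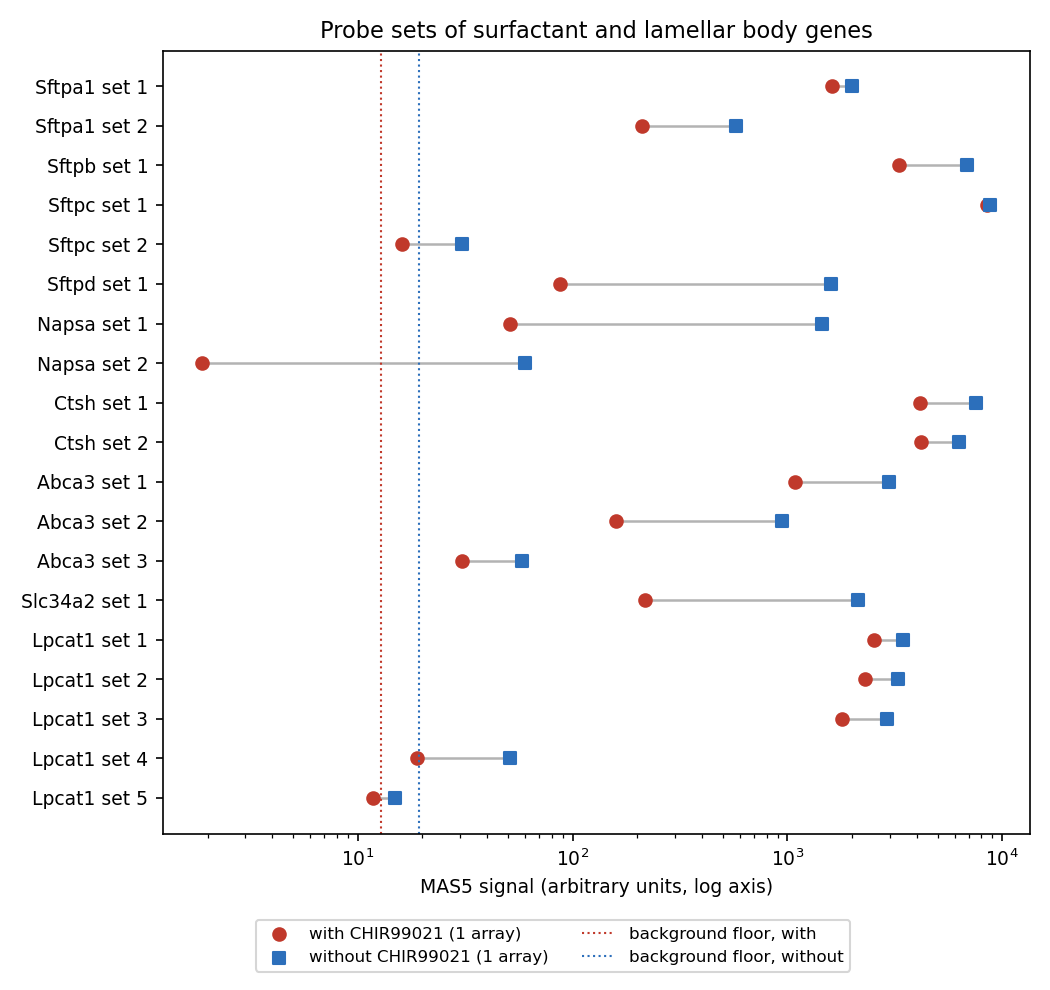
MAS5 signal (log axis) of the 19 probe sets of the 9 member genes, with CHIR99021 (circles, 1 array) and without it (squares, 1 array); a grey line joins the pair of signals of a probe set and dotted lines mark each array's background floor. The circle lies left of the square for every probe set, by little for the brighter Sftpc probe set (8500 and 8808) and by much for the brighter Napsa probe set (51.1 and 1456).

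Promoter sequences are shown for 3 of the members with a matched window, chosen for their unequal ratios. These are Slc34a2, with a log2 ratio of -3.30, Sftpb, with -1.04, and Sftpa1, with -0.31. Whether the ratios are related to the sequences was not tested. The sequences are RefSeq windows of build GRCm38.p6, from 250 bases before to 50 bases after the annotated start. Windows of 6 of the 10 members were matched by symbol. None was matched for Napsa and Sftpd, which have the lowest ratios of the members, for Sftpc, which has the highest on the authors' scale, or for Ctsh. Capitals mark matches to the motifs described next.
Slc34a2, plus strand of chr5:53049103-53049402: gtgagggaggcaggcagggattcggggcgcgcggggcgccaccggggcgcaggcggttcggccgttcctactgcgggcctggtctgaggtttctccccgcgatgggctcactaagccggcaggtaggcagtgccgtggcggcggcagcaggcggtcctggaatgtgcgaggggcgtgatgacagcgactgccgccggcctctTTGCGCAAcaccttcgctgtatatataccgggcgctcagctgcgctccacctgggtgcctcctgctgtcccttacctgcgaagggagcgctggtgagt
Sftpb, plus strand of chr6:72304360-72304659: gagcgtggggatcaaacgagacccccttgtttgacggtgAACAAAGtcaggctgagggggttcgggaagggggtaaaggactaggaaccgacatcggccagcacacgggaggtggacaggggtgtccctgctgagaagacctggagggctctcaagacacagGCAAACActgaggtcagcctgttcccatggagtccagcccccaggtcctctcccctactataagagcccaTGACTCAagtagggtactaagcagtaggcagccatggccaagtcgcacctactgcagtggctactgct
Sftpa1, plus strand of chr14:41131538-41131837: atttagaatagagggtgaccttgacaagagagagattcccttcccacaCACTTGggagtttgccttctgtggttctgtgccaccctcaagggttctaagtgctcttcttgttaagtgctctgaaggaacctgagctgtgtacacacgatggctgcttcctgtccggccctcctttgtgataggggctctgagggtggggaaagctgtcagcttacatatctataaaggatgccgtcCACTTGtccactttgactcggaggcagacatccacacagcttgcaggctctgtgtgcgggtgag

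Motifs were searched on both strands. Positions give the first base of a match in the window as printed, and a match describes letters, not a bound site. The Wnt effector motif of TCF and LEF factors (CTTTGAT or CTTTGTT) was found in the windows of Sftpb, at -211 from the start, and of Lamp3, at -65, and 9.33% of all 32851 windows hold it. Sftpb and Lamp3 also held the FOXA motif (TGTTTAC or TGTTTGC), present in 8.48% of windows, and Sftpb held the AP-1 motif (TGANTCA), present in 7.81%. The NKX2-1 core (CAAGTG) occurred at -202 and -14 in the Sftpa1 window and in 13.6% of all windows. The C/EBP motif (TTGCNNAA or TTNCGCAA, which overlap at 1 place here) occurred at -48 in the Slc34a2 window and in 10.8% of all windows. The GATA motif (AGATAA) was in 0 of the 6 member windows and in 11.2% of all windows. No motif searched was found in the windows of Abca3 and Lpcat1.

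The 4 surfactant protein genes spanned most of the range seen among the members. Sftpd, which encodes SP-D, had a signal of 87.8 with CHIR99021 and 1602 without it by its only probe set. It was 18.3-fold lower with CHIR99021, and only 34 of the 12891 genes above the floor had a lower ratio. Sftpa1, which encodes the other collectin, SP-A, had 1611 with CHIR99021 and 1998 without it by the probe set of higher signal, a log2 ratio of -0.31. Its second probe set had 211 with CHIR99021 and 576 without it, a log2 ratio of -1.45, so the size for Sftpa1 depends on the probe set. The annotation places both genes on chromosome 14 with 1 protein-coding gene, Mbl1, and 1 pseudogene between them.

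Sftpb encodes SP-B, which is needed to build lamellar bodies and to spread the lipid film. Its single probe set had 3312 with CHIR99021 and 6828 without it, 2.06-fold lower and so just past the 2-fold limit, and it was under that limit in all 4 alternative scalings. Of the genes above the floor, 17.0% had a lower ratio. Sftpc encodes SP-C and had 8500 with CHIR99021 and 8808 without it, a log2 ratio of -0.05. On the authors' scale that is the highest ratio among the members, higher than that of 74.5% of the genes above the floor, and the 2 signals differed by 1.04-fold. The other Sftpc probe set was near background, at 16.2 with CHIR99021 and 30.5 without it. Sftpc was 0.61 after median centring and 0.11 after scaling on hybridization controls, so its sign is not fixed.

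The processing proteases also differed from each other. Napsa encodes napsin A, an aspartic protease that cuts the precursors of SP-B and SP-C. It had 51.1 with CHIR99021 and 1456 without it, 28.5-fold lower and the lowest ratio of the members, with 17 genes of all those above the floor lower still. Its second probe set was below the floor with CHIR99021 and at 59.8 without it, at least 4.64-fold lower. Ctsh encodes cathepsin H, a cysteine protease that acts on the same precursors and is also found in lysosomes of many other cells. Its 2 probe sets had 4161 and 4202 with CHIR99021, against 7515 and 6303 without it, with log2 ratios of -0.85 and -0.58. Both were within 2-fold.

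Among the membrane and lipid components, Slc34a2 showed the lowest ratio. It encodes a sodium-phosphate cotransporter of the type 2 cell surface. Its only probe set had 218 with CHIR99021 and 2142 without it, 9.83-fold lower, with 97 of all genes above the floor lower still. Abca3 encodes the transporter that pumps phospholipid into the lamellar body. Its 3 probe sets were all lower with CHIR99021: the first had 1090 with it and 2972 without it, the second 159 and 945, and the third 30.6 and 58.4. The log2 ratios were -1.45, -2.57 and -0.93, so the third was within 2-fold. Lpcat1 encodes an acyltransferase that makes the saturated phosphatidylcholine of surfactant. Its 3 bright probe sets had 2524, 2287 and 1793 with CHIR99021, against 3468, 3287 and 2898 without it. Their log2 ratios lay between -0.69 and -0.46, near the -0.42 of the median gene, and a dim probe set, at 18.8 with CHIR99021 and 51.2 without it, had -1.44.

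**Figure D2:**
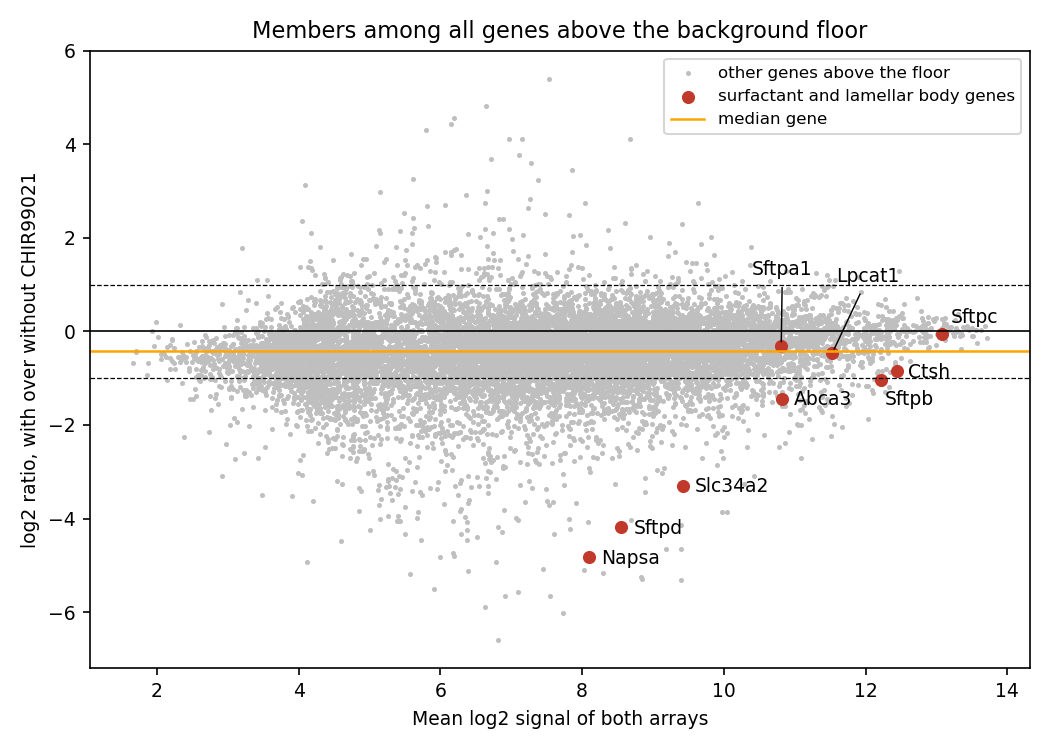
Log2 ratio, with over without CHIR99021, against mean log2 signal for the 12891 genes above the floor on at least 1 array (grey) and the 9 members (red, named); dashed lines mark 2-fold and the orange line the median gene at -0.42. Napsa (-4.83), Sftpd (-4.19) and Slc34a2 (-3.30) lie below the cloud, while Lpcat1 (-0.46), Sftpa1 (-0.31) and Sftpc (-0.05) lie within it.

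Differences between members listed in the same group were set side by side, because a factor that scales a whole array cancels in them. The pairs were not named in advance, so the size of a gap depends on the pair chosen. The log2 ratio of Sftpd minus that of Sftpa1 was -3.88, a 14.7-fold gap between their ratios, and this difference lay between -3.88 and -2.74 over the alternative scalings and probe set choices, the last when probe sets with the suffixes _x_at, _s_at and _a_at were left out. The difference of Napsa minus Ctsh was -3.98, with a range of -3.98 to -2.80. The end at -2.80 came from the median over probe sets and is a bound. There the second Napsa probe set was below the floor with CHIR99021. For Slc34a2 minus Lpcat1 the difference was -2.84, with a range of -2.84 to -2.63. Differences of less size separated Sftpb from Sftpc, at -0.99 with a range of -0.99 to -0.56. Abca3 and Lpcat1 differed by -0.99, with a range of -0.99 to -0.84. Median centring, hybridization control scaling and changes of floor could not move these differences, so the other alternatives gave the ranges. Single probe sets ran from -2.57 to -0.93 for Abca3 and from -1.44 to -0.46 for Lpcat1, wider than the range of that pair. For comparison, probe sets of the same gene differed with an SD of 0.557 on the log2 scale over 5326 genes, which measures probes and not cultures. That SD is for 1 ratio, and a difference between 2 genes carries the probe scatter of both, so its spread is larger.

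The scaling of the arrays decided where the members of smaller difference fell, and median centring raised the median of all genes by 0.67 on the log2 scale. That median was then 0.24, so a ratio of 0 is not that of the median gene. It was 0.12 with quantile normalization, 0.04 with loess and -0.26 with hybridization control scaling. Napsa, Sftpd and Slc34a2 were at least 2-fold lower under all 4 alternative scalings. Their log2 ratios were -4.17 or below for Napsa, -3.53 or below for Sftpd and -2.63 or below for Slc34a2. Sftpd and Slc34a2 each have 1 probe set, and rescaling cannot show an error of a probe set. Abca3 was at least 2-fold lower under loess, quantile and hybridization control scaling and at -0.78 after median centring. Sftpb was under 2-fold in all 4, between -0.96 and -0.38, and Ctsh lay between -0.79 and -0.19. Lpcat1 and Sftpa1 were below 0 under 3 of the 4 and at 0.21 and 0.35 after median centring. After loess, which removes the dependence of the ratio on signal, 7.89% of genes above the floor had a lower ratio than Sftpb, 10.8% a lower one than Ctsh, 27.9% than Lpcat1, 41.6% than Sftpa1 and 42.9% than Sftpc.

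**Figure D3:**
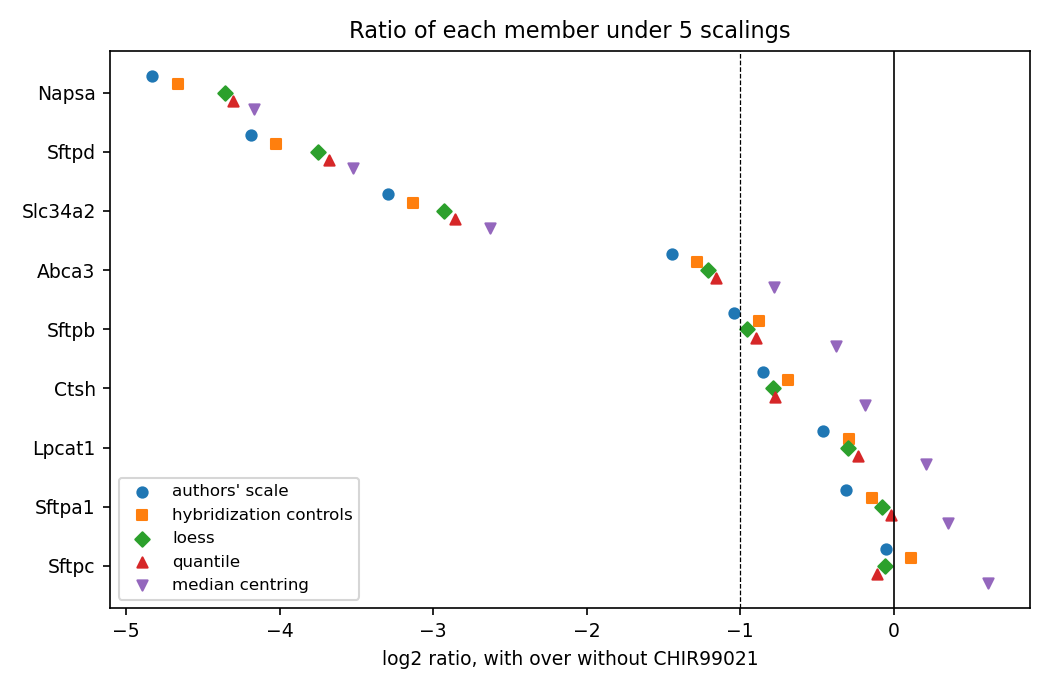
Log2 ratio, with over without CHIR99021, of each member under the authors' scale and 4 alternative scalings (symbols); the solid line marks 0 and the dashed line 2-fold lower. Napsa, Sftpd and Slc34a2 stay left of -2 under all 5, and median centring places Lpcat1 (0.21), Sftpa1 (0.35) and Sftpc (0.61) right of 0.

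The wider surfactant pathway was described with 7 lists of 121 further genes, of which 111 were above the floor on at least 1 array. On the authors' scale 37 of these were at least 2-fold lower with CHIR99021 and 0 at least 2-fold higher, beside 18.4% and 1.9% of all genes, and their median log2 ratio was -0.63. The split depends on the scaling: there were 17 lower and 12 higher after median centring, 20 and 5 with quantile normalization, 23 and 4 with loess, and 30 and 1 when hybridization controls set the scale. Over all genes, median centring gave 5.47% lower and 9.5% higher, quantile normalization 6.3% and 7.28%, loess 7.33% and 6%, and hybridization control scaling 13.7% and 2.75%. The median log2 ratio of all genes was 0.24, 0.12, 0.04 and -0.26 in the same order.

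Of 19 measured genes of phosphatidylcholine and phosphatidylglycerol synthesis, 6 were at least 2-fold lower with CHIR99021, beside 18.4% of all genes. The list's median log2 ratio was -0.62, beside -0.42 for all genes. After median centring 2 were lower and 1 higher, with a median of 0.05, beside 0.24 for all genes. Pcyt1a, the rate-limiting enzyme of phosphatidylcholine synthesis, had 87.0 with CHIR99021 and 524 without it, 6.02-fold lower, and its 4 probe sets ranged from -2.60 to -1.64. Cds1, which makes the precursor of phosphatidylglycerol, had 36.2 with CHIR99021 and 286 without it, 7.89-fold lower. Gpam, the acyltransferase of the first step of glycerolipid synthesis, was 2.69-fold lower, and Lpin1, a phosphatidate phosphatase, 2.43-fold lower. Of 14 measured genes of fatty acid supply, 3 were at least 2-fold lower, beside 18.4% of all genes. The list's median log2 ratio was -0.40, beside -0.42 for all genes. After median centring 1 was lower and 4 higher, with a median of 0.27, and with quantile normalization or loess 1 was lower and 1 higher. Elovl5, an elongase of polyunsaturated fatty acids, had 1577 with CHIR99021 and 5558 without it, Plin2, a coat protein of lipid droplets, was 2.61-fold lower, and Elovl1, an elongase of saturated chains, 2.23-fold lower. Acsl4, an acyl-CoA synthetase, was at -0.88 by its brightest probe set and at -3.13 and -1.94 by the others.

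Lamellar body biogenesis and exocytosis genes had 9 of 24 measured members at least 2-fold lower, beside 18.4% of all genes. The list's median log2 ratio was -0.81, beside -0.42 for all genes. Under the 4 alternative scalings it lay between -0.64 and -0.14, beside -0.26 to 0.24 for all genes. There 2 to 8 of the 24 were at least 2-fold lower, beside 5.47% to 13.7% of all genes. Rab27a, a GTPase of secretory lysosome release, was below the floor with CHIR99021 and at 135 without it, at least 10.5-fold lower. Of its dim probe sets, near the floor, 1 was at least 2.38-fold lower and the other at least 1.08-fold higher. Rab3d, a GTPase of secretory granules, had 69.8 with CHIR99021 and 442 without it, 6.33-fold lower. Hps1, a subunit of a complex for lysosome-related organelles, was 2.82-fold lower by its brightest probe set and 1.80-fold lower by a dimmer one, while the remaining one had only a bound. Anxa7, a calcium-dependent membrane fusion protein, was 2.80-fold lower. Of 9 other proteases and protease inhibitors of the endolysosome, 1 was at least 2-fold lower, beside 18.4% of all genes. Their median log2 ratio was -0.44, beside -0.42 for all genes. After median centring 0 were lower and 2 higher, with a median of 0.22, beside 9.5% higher and 0.24 for all genes. Ctsc, cathepsin C, had 2802 with CHIR99021 and 6258 without it, 2.23-fold lower. Ctse, cathepsin E, was at -0.99, Lgmn, an asparaginyl endopeptidase, at -0.94 and Cst3, an inhibitor of cysteine proteases, at 0.51.

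In surfactant uptake and turnover 2 of 7 measured genes were at least 2-fold lower, beside 18.4% of all genes. The list's median log2 ratio of -0.54 turned to 0.13 after median centring, 0.10 after quantile normalization and 0.03 after loess. The medians of all genes under these scalings were 0.24, 0.12 and 0.04. Cd36, a scavenger receptor that takes up fatty acids, had 73.5 with CHIR99021 and 2895 without it, 39.4-fold lower, and its further probe sets were at -4.83 and at -4.20 or lower. Adgrf5, an adhesion receptor that restrains the surfactant pool, had 489 with CHIR99021 and 1024 without it, 2.10-fold lower. Csf2ra, a receptor chain for the cytokine GM-CSF, had 69.2 and 107, and Ackr2, a decoy chemokine receptor, 17.1 and 24.9, both in the same order.

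Transcription factors known to bind surfactant gene promoters had 6 of 21 members at least 2-fold lower, beside 18.4% of all genes. The list's median log2 ratio was -0.49, beside -0.42 for all genes. After median centring 4 were lower and 2 higher, beside 5.47% and 9.5% of all genes. The list's median was then 0.18, beside 0.24. Nkx2-1, the lung identity factor, was below the floor with CHIR99021 and had 52.0 without it, at least 4.03-fold lower by a single dim probe set. Cebpa, a factor of type 2 cell maturation, had 138 with CHIR99021 and 581 without it, 4.21-fold lower. Cebpd, of the same family, was 4.22-fold lower, and Epas1, a hypoxia-inducible factor, 4.84-fold lower. Foxa1 and Foxa2, forkhead factors of endoderm, had 1897 and 1820 with CHIR99021, against 2686 and 2549 without it, within 2-fold. Gata6 had 2165 with CHIR99021 and 1937 without it, and its dimmer probe sets were below 0. Nfib, a factor of lung maturation, had 1068 with CHIR99021 and 844 without it, with 7 probe sets on both sides of 0.

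Of 17 other genes of alveolar type 2 cells, 10 were at least 2-fold lower with CHIR99021, beside 18.4% of all genes. The list's median log2 ratio was -1.10, beside -0.42 for all genes. It lay between -0.93 and -0.41 under the 4 alternative scalings, beside -0.26 to 0.24 for all genes. Those scalings gave 7 lower and 3 higher after median centring, 6 and 2 with quantile normalization, 7 and 2 with loess, and 8 and 1 with hybridization controls. S100g, a calcium-binding protein, had 73.9 with CHIR99021 and 2820 without it, 38.1-fold lower. Il33, a cytokine, had 20.0 with CHIR99021 and 609 without it. Nupr1, a stress-response protein, was 8.55-fold lower and Muc1, a membrane mucin, 4.82-fold lower. Some of the other lower genes were dim and near the floor. Lyz2 had 35.0 with CHIR99021 and 74.9 without it, Cd74 25.1 and 51.8, Hc 18.8 and 52.8, and Lrp2 16.6 and 57.3. Chil1 was below the floor with CHIR99021 and at 41.2 without it.

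**Figure D4:**
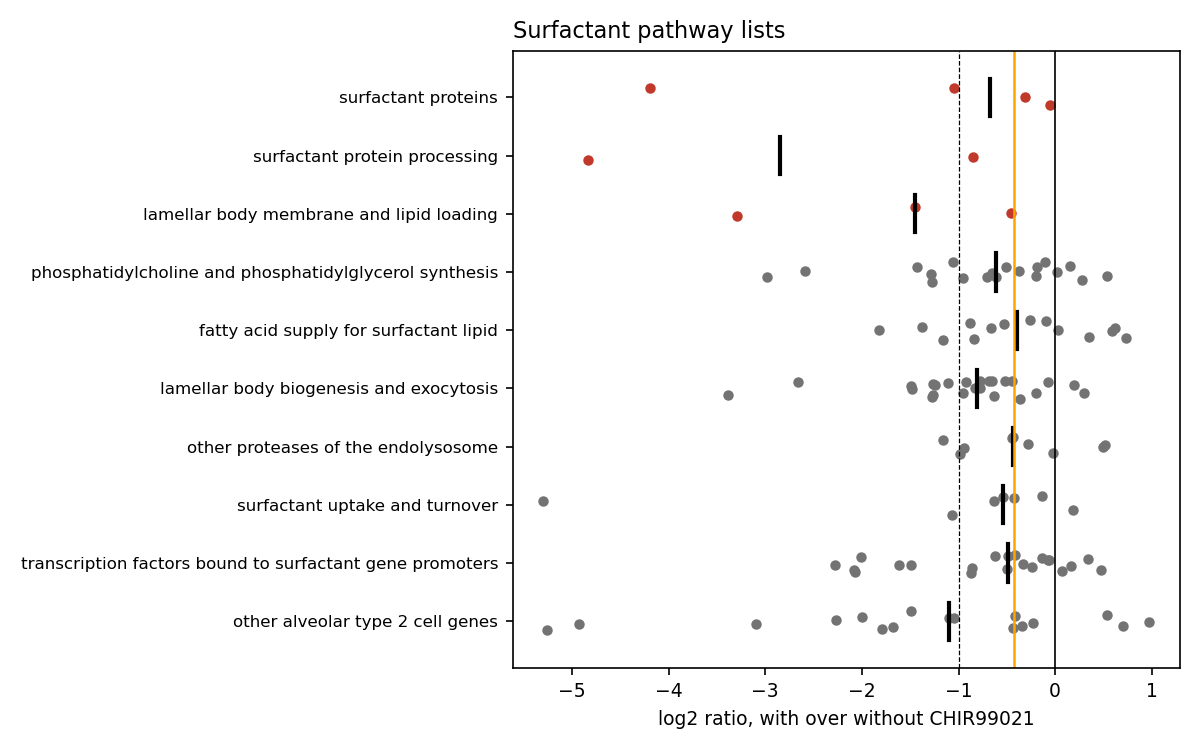
Log2 ratio, with over without CHIR99021, of each gene above the floor on at least 1 array in the 3 member groups (red) and 7 further lists (grey), 1 point a gene; black bars are list medians, the orange line is the median of all genes (-0.42) and the dashed line marks 2-fold lower. The medians of lamellar body biogenesis (-0.81) and other type 2 cell genes (-1.10) lie left of the orange line, and that of fatty acid supply (-0.40) lies next to it.

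Markers of other cells moved in different directions. Of 9 alveolar type 1 markers 7 were at least 2-fold lower, with a summed signal of 8619 with CHIR99021 and 22343 without it, and of 8 measured airway secretory markers 7 were, with 122 and 3407. After median centring 5 of each were. Over all genes 18.4% were at least 2-fold lower on the authors' scale and 5.47% after median centring. Of 6 distal tip markers 2 were at least 2-fold higher, beside 1.9% of all genes. Of 2 measured neuroendocrine markers 1 was at least 2-fold lower. Sox2, the airway transcription factor, was below the floor with CHIR99021, at least 22.1-fold lower, and Sox9, the factor of the distal tip, had 771 with CHIR99021 and 70.1 without it. Airway secretory cells also make SP-A, SP-B and SP-D, and the part of this shift in the ratios of the members was not tested. Of 8 general lung epithelium markers 3 were at least 2-fold lower, namely Nkx2-1 and the keratins Krt8 (3151 with CHIR99021 and 7715 without it) and Krt18 (2834 and 6738), and the median log2 ratio of the list was -0.81, beside -1.04 for the members. Cdh1, E-cadherin, was at -0.84, Esrp1, a splicing regulator of epithelium, at -0.78 and Epcam, an adhesion molecule, at -0.04. By the probe set that represents each gene, part of the markers of non-epithelial cells were below the floor. With CHIR99021 these were 5 of 12 mesenchyme markers, 5 of 8 endothelial markers and 6 of 11 blood cell markers, and without it 5, 5 and 7. Above the floor on at least 1 array were 7, 3 and 5 markers in the same order. They included Acta2 (194 with CHIR99021 and 199 without it), Col3a1 (54.6 and 88.7), Esam (141 and 75.2) and Lyz1 (166 and 295). Those below the floor on both arrays by every probe set included Pdgfrb, Tbx4 and Twist1 of mesenchyme, Pecam1, Cdh5 and Tie1 of endothelium, and Ptprc, Marco and Tyrobp of blood cells. Summed signals were 1399 and 735 for mesenchyme, where Fn1 held 998 and 247, then 208 and 180 for endothelium and 305 and 475 for blood cells, each with CHIR99021 first.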

How the data were processed

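Total RNA (100 ng) of 1 culture per condition was labelled with a 3' in vitro transcription kit, per the labels' protocols. The deposited intensity values are MAS5 signals of probe sets, not in logs. MAS5 is named, per the submitters' processing notes, with no version or scaling target. MAS5 subtracts mismatch signal, so low values scatter, and precision is limited by 1 array per condition.

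Probe sets were named from the platform annotation: 34958 named 1 gene, 932 several and 9211 none. All 9 members measured kept their symbol in a RefSeq table of GRCm38.p6, matched by Entrez identifier. The floor came from 78 receptor probe sets, signals under it were raised to it, and a ratio with 1 signal under it is written "at least". A gene was called at 2-fold. Alternatives were median centring, quantile, loess (span 0.4) and hybridization control (9 probe sets) scaling, floors at percentiles 90 and 99 or none, an offset of 16, the median over probe sets, probe sets without the suffixes _x_at, _s_at and _a_at, and thresholds of 1.5- and 3-fold.

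The members and lists were chosen with earlier results of these data known. Named genes are all members, up to 4 genes per list of largest absolute log2 ratio, 6 transcription factors and 5 checks of the labels. Others are named as markers, as dim type 2 cell genes or after their values were seen. The calculation of ratios was tested on simulated data built from the array without CHIR99021, with large changes put into genes of higher signal. That checks the calculation and not the accuracy of the ratios given here. Python 3.11.15, numpy 2.4.6, pandas 2.3.3, statsmodels 0.14.6 and matplotlib 3.10.9 were used.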

Additional observations from a re-analysis of the deposited data

How the results depend on the processing

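With 1 array per condition no replicate could be left out. No paired analysis was possible because each condition has 1 array and no test was run. The count of 5 members at least 2-fold lower was 3 after median centring and 3 at a threshold of 3-fold, and lay between 4 and 6 under the other alternatives; none were at least 2-fold higher under any alternative run. The median log2 ratio of the members was -0.38 after median centring and -1.83 as a mean in place of a median, against -1.04. The count of pathway genes at least 2-fold lower, 37 on the authors' scale, was 17 after median centring, 20 after quantile normalization and 23 after loess, and the count at least 2-fold higher, 0 on that scale, was 12, 5 and 4 under the same and 1 after scaling on hybridization controls. The members' median minus that of all genes was -0.62 on the authors' scale, -1.02 with quantile normalization and -0.997 with loess; a constant shift such as median centring cannot change it. All 9 members' ratios moved by more than 0.557, the SD between probe sets of a gene, under median centring, and those of Sftpa1 (-0.88) and Napsa (-3.52) did under the median over probe sets, as did that of Sftpa1 (-1.45) without suffixed probe sets. Changing the floor could not move them, since their representing probe sets lie above it. Signals near the floor limit what can be said of the second probe sets of Napsa and Sftpc and the dimmest of Lpcat1. The Napsa value of -3.52 rests in part on its second probe set, which has only a bound.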

Other observations

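Some genes of surfactant lipid and type 2 cells had a higher signal with CHIR99021, without reaching 2-fold on the authors' scale; they were chosen after their values were seen. Under other scalings some passed it: Bex2 under all 4 (log2 ratios of 1.14 to 1.64), Elovl6 (1.10) and Lgi3 (1.04) after loess, and Fasn (1.40), Scd1 (1.28), Srebf1 (1.02) and Cxcl15 (1.21) after median centring. Over all genes, 9.5% were at least 2-fold higher after median centring, 7.28% with quantile normalization, 6% after loess and 2.75% with hybridization control scaling. Fasn, fatty acid synthase, had 3331 with CHIR99021 and 2007 without it, and its log2 ratio of 0.73 was 0.91 after loess. Scd1, a desaturase, had 4016 and 2616 in the same order by its brighter probe set and 429.6 and 426.6 by the other. Elovl6, an elongase of saturated fatty acids, had 220 with CHIR99021 and 146 without it by its brightest probe set. Its other probe sets had log2 ratios of 0.27 and of at least 0.28. Srebf1, a transcription factor of fatty acid synthesis, had 2652 with CHIR99021 and 2080 without it. Among type 2 cell genes, Cxcl15, a chemokine of lung epithelium, had 1502 with CHIR99021 and 1033 without it, with a second probe set at a log2 ratio of 0.48. Lgi3, a secreted leucine-rich repeat protein, had 1135 with CHIR99021 and 696 without it, with all 3 probe sets above 0. Bex2 had 854 with CHIR99021 and 434 without it.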
